A study of Mus musculus with 6 samples.

Results

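The genes described here are 9 components of retinoic acid metabolism and reception, Aldh1a1, Aldh1a2, Aldh1a3, Rdh10, Cyp26b1, Crabp1, Rara, Rarb and Rarg, picked by symbol from the 23219 genes of the deposited kidney table. All 9 were found. The set was assembled around the higher Aldh1a3 level already seen in the same comparison of mutant with control kidneys, so the differences between genotypes below are a description of that comparison and not independent evidence for it. The tissue was whole kidney of mouse embryos at day 17 of gestation, profiled by RNA sequencing. The 3 control kidneys carried the Mta2flx/flx genotype (numbered 5, 7 and 11 by the labels), and the 3 mutant kidneys were Six2Cre Mta2flx/flx (numbered 6, 8 and 9). All 6 kidneys thus carried floxed Mta2, which encodes a subunit of the NuRD chromatin complex, and only the mutants carried Cre, driven by Six2 in nephron progenitors. Loss of Mta2 and presence of the Cre transgene cannot be told apart in this design.

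Retinoic acid, the active form of vitamin A, is made from retinol in successive oxidations. RDH10 converts retinol to retinal, the ALDH1A enzymes convert retinal to retinoic acid, and the CYP26 enzymes break retinoic acid down. It binds retinoic acid receptors (RARs), which act on DNA as pairs with retinoid X receptors (RXRs). In the developing mouse kidney Aldh1a2 is known from the stroma and Aldh1a3 from the ureteric bud epithelium, both outside the Six2 lineage, and signalling through RARs in the stroma is known to sustain Ret, the growth factor receptor of the branching bud tips.

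Levels are given as BPM, the covered bases of a gene scaled to a total of 1000000 per library. Summed coverage per library was 794 to 1235 megabases. Read numbers are unknown, so no counting interval is given. Nothing in the labels ties each kidney to its own embryo or litter, so a p-value here reflects variation among the 6 samples that could be technical. Mta2 itself read 220, 198 and 210.5 BPM in controls 5, 7 and 11 and 139.6, 189 and 146 BPM in mutants 6, 8 and 9, lower in every mutant. In control 11 the Lars2 gene took 2.30% of all bases, against 0.0739% to 0.482% in the other libraries, and mutant 9 carried skeletal muscle transcripts, with a summed level of 8 muscle genes of 329.6 BPM against 3.92 to 14.9 BPM in the other 5.

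The enzyme genes Aldh1a3, Aldh1a2 and Rdh10 stood higher in every mutant kidney, while groups overlapped for Aldh1a1, for Cyp26b1, for the carrier Crabp1 and for all 3 receptors. Of the 9 genes 7 had a log2 fold change (mutant over control, on the log2(BPM + 1) scale) above 0 and 2 below, with a median of 0.60, against a median of 0.02 over the 13977 genes tested. For 3 of the 9, Aldh1a3, Aldh1a2 and Rdh10, every mutant kidney lay above every control kidney, as did 6.10% of all genes tested, and 0 of the 9 lay wholly below, as did 5.12% of all genes. These counts include Aldh1a3, whose higher level was known when the set was made. Of the 8 genes without it, 6 were above 0 with a median of 0.59, and 2 lay wholly above control. Limma, fitted on all genes, called 0 of the 9 at a Benjamini-Hochberg adjusted p of 0.05, and 0.00% of all genes were called. For the 8 genes other than Aldh1a3 the adjusted p ran from 0.839 to 0.994, and 3 of these 8 had an unadjusted p below 0.05 (5.60% of all genes did). In whole tissue, fewer cells of a type and less RNA per cell cannot be told apart.

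**Figure D1:**
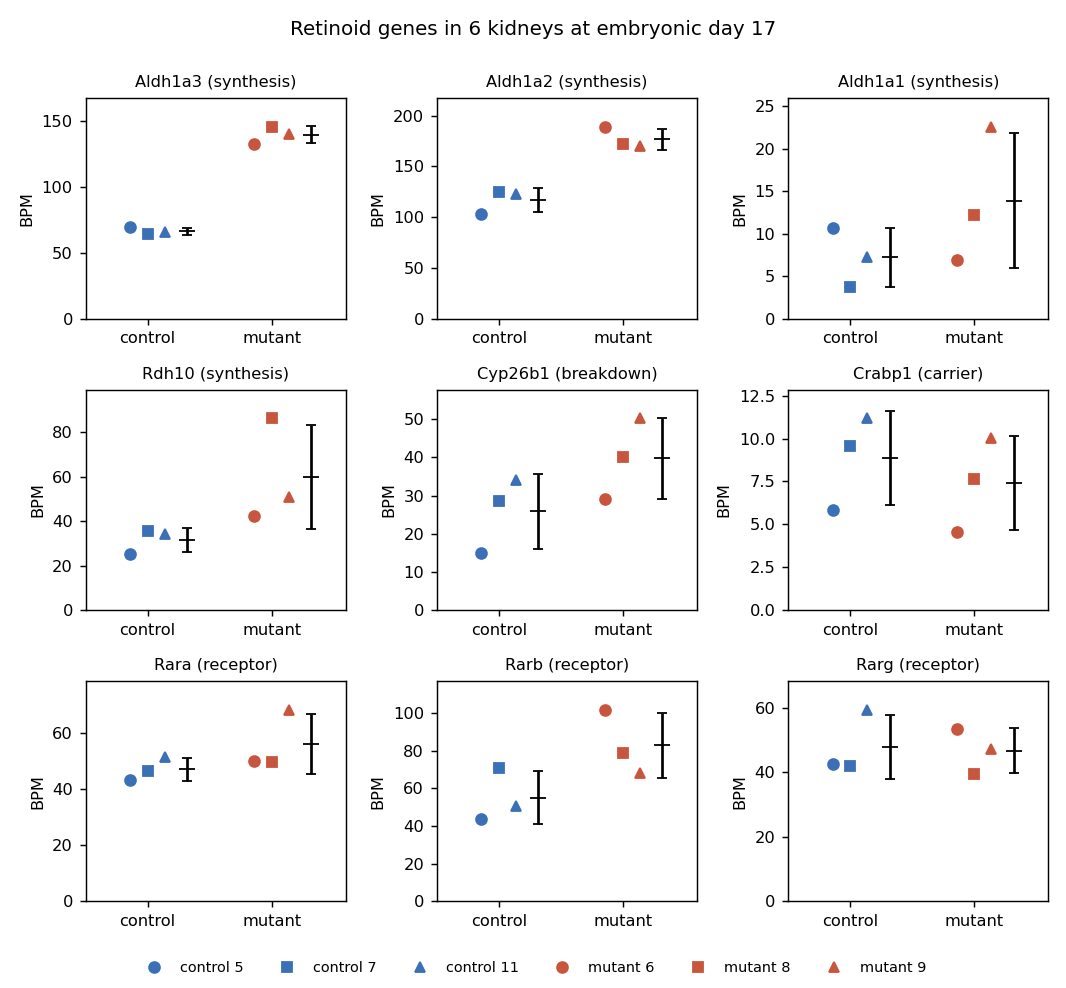
Levels of the 9 retinoid genes in BPM (covered bases scaled to 1000000 per library) in the 3 control (blue) and 3 mutant (red) kidneys, 1 point per kidney, with the mean and SD of each group beside the points. The mutant points lie above all control points for Aldh1a3, Aldh1a2 and Rdh10 and overlap the control points for the other 6 genes.

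Aldh1a3, the retinal dehydrogenase of the ureteric bud (chromosome 7, 66390890 to 66427517, minus strand), separated the groups with little spread within either. It read 69.3, 64.1 and 65.5 BPM in controls 5, 7 and 11 and 133, 145 and 140.3 BPM in mutants 6, 8 and 9. All mutant values were close to each other and to 2.10 times the control mean. The log2 fold change was 1.06 (SE 0.24), and it stayed between 1.03 and 1.10 when each library was left out in turn.

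Aldh1a2, the retinal dehydrogenase of the renal stroma (chromosome 9, 71215789 to 71296243, plus strand), also stood higher in every mutant kidney. It read 103, 125 and 122 BPM in controls 5, 7 and 11 and 189, 172 and 169.8 BPM in mutants 6, 8 and 9. The mutant mean was 1.51 times the control mean, with a log2 fold change of 0.60 (SE 0.22, 95% interval 0.16 to 1.04), and the value ran from 0.51 to 0.65 with each library left out. The adjusted p was 0.839 in limma, so this difference did not pass over all genes.

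Rdh10, the retinol dehydrogenase that supplies retinal to the ALDH1A enzymes (chromosome 1, 16105774 to 16133734, plus strand), read 25.3, 35.4 and 34.1 BPM in controls 5, 7 and 11 and 42.4, 86.3 and 50.7 BPM in mutants 6, 8 and 9. The lowest mutant lay above the highest control, but the mutants were spread widely and mutant 8 was far above the other mutants. This is a log2 fold change of 0.85 (SE 0.32, 95% interval 0.20 to 1.50), or of 0.56 without mutant 8, and limma gave an adjusted p of 0.854.

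Aldh1a1, the third retinal dehydrogenase (chromosome 19, 20492715 to 20643465, plus strand), was low and variable. It read 10.7, 3.78 and 7.22 BPM in controls 5, 7 and 11 and 6.87, 12.3 and 22.6 BPM in mutants 6, 8 and 9, so the groups overlapped. The highest value belonged to mutant 9, the library with muscle transcripts, and the log2 fold change of 0.81 (SE 0.56) was 0.41 without it and 0.46 without control 7. The part of the muscle transcripts in this value was not tested. Aldh1a1 also has a close copy, Aldh1a7, between which the authors' counting could split reads. Aldh1a7 stood at 18.5 ± 5.54 BPM in the control group and 17.8 ± 8.80 BPM in the mutant group (SD, n = 3 each). The adrenal gland, which borders the kidney and in the mouse expresses Aldh1a1, was read through 9 markers, which summed to 0 to 4.30 BPM in control and 0.531 to 4.57 BPM in mutant kidneys, with Cyp11b1, Cyp21a1 and Th listed at 0 in all 6 libraries.

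Levels of different genes were compared per kilobase of exon. On that scale Aldh1a2 was the most abundant retinal dehydrogenase in every kidney, at 45.5 to 55.2 BPM per kb in control and 75.0 to 83.4 BPM per kb in mutant kidneys. Aldh1a3 followed at 13.9 to 15.0 and 28.7 to 31.5, and Aldh1a1 was at 0.765 to 2.16 and 1.39 to 4.57 BPM per kb. The summed level of the 3 enzymes in controls 5, 7 and 11 was 62.7, 69.9 and 69.7 BPM per kb, and in mutants 6, 8 and 9 it was 114, 109.9 and 109.9 BPM per kb, so the mutant sums lay well above the control sums. Aldh1a3 contributed 23.9%, 19.9% and 20.4% of that sum in the controls and 25.3%, 28.7% and 27.6% in the mutants. Its share was higher in each mutant than in each control, but mutant 6 and control 5 differed by little, and Aldh1a2 remained the larger part throughout.

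Cyp26b1, an enzyme that hydroxylates and inactivates retinoic acid (chromosome 6, 84571414 to 84593908, minus strand), read 14.9, 28.6 and 34.1 BPM in controls 5, 7 and 11 and 29.0, 40.03 and 50.3 BPM in mutants 6, 8 and 9. Mutant 6 lay between controls 7 and 11, so the groups overlapped. Its log2 fold change was 0.64 (SE 0.36, 95% interval -0.09 to 1.38), but 0.30 without control 5, the lowest kidney, and limma gave an adjusted p of 0.887. Per kilobase of exon, the sum of Aldh1a2 and Aldh1a3 was 10.7 to 21.7 times the Cyp26b1 level in control kidneys and 11.2 to 20.7 times in mutant kidneys. That ratio covered nearly the same range in both genotypes.

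Crabp1, a cytosolic protein that binds retinoic acid (chromosome 9, 54764748 to 54773110, plus strand), was among the lowest of the set in BPM. Its exons are short (802 bases), and per kilobase of exon its control mean ranked 4 of the 9 genes. Crabp1 read 5.81, 9.58 and 11.2 BPM in controls 5, 7 and 11 and 4.54, 7.61 and 10.004 BPM in mutants 6, 8 and 9, with overlap. The log2 fold change was -0.25 with a 95% interval of -1.41 to 0.91, which leaves both directions possible, and it changed sign without mutant 6.

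The 3 receptors differed from one another in how far the groups lay apart. Rara (chromosome 11, 98927818 to 98974942, plus strand) read 43.3, 46.5 and 51.4 BPM in controls 5, 7 and 11 and 49.98, 49.5 and 68.3 BPM in mutants 6, 8 and 9. Mutants 6 and 8 lay within reach of control 11, and the log2 fold change of 0.23 (SE 0.29) was 0.08 without mutant 9. Rarg (chromosome 15, 102234938 to 102257517, minus strand) read 42.5, 41.9 and 59.4 BPM in the controls and 53.4, 39.5 and 47.2 BPM in the mutants, in the same order. Its groups overlapped, with a log2 fold change of -0.03 (95% interval -0.63 to 0.58) whose sign changed without control 11 or without mutant 8.

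Rarb (chromosome 14, 16430839 to 16819156, minus strand), which is both a receptor and one of the best known targets of retinoic acid, read 43.6, 71.02 and 50.8 BPM in controls 5, 7 and 11 and 102, 78.7 and 68.0 BPM in mutants 6, 8 and 9. Mutants 6 and 8 lay above all controls, and mutant 9 lay just below control 7. Its log2 fold change was 0.59 (SE 0.27, 95% interval 0.03 to 1.14), with a limma adjusted p of 0.863, and it ran from 0.43 to 0.78 with each library left out. Over the summed level of the 3 receptors per kilobase of exon, Rarb took 27.3% to 39.7% in control and 32.6% to 44.6% in mutant kidneys, which overlap. The 3' exons of Rarb lie opposite exons at the 3' end of Top2b, a DNA topoisomerase gene on the other strand (1793 of 3392 exon bases of Rarb in the GENCODE basic set, 52.9%). Top2b read 396, 358 and 185 BPM in controls 5, 7 and 11 and 429, 370.2 and 389 BPM in mutants 6, 8 and 9. Whether the counting used strand is not stated. Of 12 genes that lie wholly within exons of a well covered gene on the other strand, 9 were listed at 0 in all 6 libraries and the rest were not. Some of the 9 are microRNA genes, and the authors' annotation is unknown, so these zeros do not settle the use of strand. The part of Top2b coverage in the Rarb value was not tested.

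The promoter of Rarb holds the response element through which retinoic acid is known to act on it, and the window of Cyp26a1, which encodes another retinoic acid hydroxylase, is shown beside it because these are the only windows of retinoid genes that matched the search described next. Both are RefSeq sequences of build GRCm38.p6, written 5′ to 3′ on the gene's strand from 250 bases before to 50 bases after the start, with both copies of the repeated motif in capitals. The Rarb window is chr14:16575427-16575726 (minus strand) and the Cyp26a1 window is chr19:37697558-37697857 (plus strand).
Rarb: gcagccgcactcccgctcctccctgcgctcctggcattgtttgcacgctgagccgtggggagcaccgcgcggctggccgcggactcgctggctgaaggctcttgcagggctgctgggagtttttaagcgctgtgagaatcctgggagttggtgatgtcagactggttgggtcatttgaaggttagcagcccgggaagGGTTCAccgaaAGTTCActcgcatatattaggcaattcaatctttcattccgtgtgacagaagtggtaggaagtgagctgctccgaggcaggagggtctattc
Cyp26a1: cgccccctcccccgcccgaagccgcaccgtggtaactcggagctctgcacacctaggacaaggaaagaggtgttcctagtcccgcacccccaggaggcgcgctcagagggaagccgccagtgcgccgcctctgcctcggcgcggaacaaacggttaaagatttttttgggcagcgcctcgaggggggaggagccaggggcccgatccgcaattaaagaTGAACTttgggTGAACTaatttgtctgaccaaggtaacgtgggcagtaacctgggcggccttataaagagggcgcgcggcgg

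The search was for the DR5 element, a direct repeat of a receptor motif (AGGTCA or GGGTCA or AGTTCA or GGTTCA, in any combination) with 5 bases between the copies, on both strands. In Rarb the element runs from 53 to 37 bases before the start on the gene's own strand, and in Cyp26a1 from 32 to 16 bases before the start on the other strand. Among 32851 windows, 32 held a match (0.0974%). The windows used here include 12 for 7 of the 9 genes described, and 1 of the 12, that of Rarb shown above, held one. Aldh1a3 and Rdh10 were not among them. The repeats with 1 or 2 bases between the copies were found in 0.222% and 0.268% of windows and in none of the 12 windows, and among the windows of the further retinoid genes 1, that of Bco1, held the repeat with 1 base between. These letters describe the window alone. Of the 31 genes with a DR5 match only 4 were tested in these kidneys (Rarb, Blvrb, Syndig1 and Tnfsf13b), with log2 fold changes of 0.59, 0.15, 0.85 and -0.36, and their groups overlapped in each case. Cyp26a1 was not tested: it was listed at 0 in 4 libraries and read 1.19 BPM in control 11 and 7.07 BPM in mutant 6.

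Ordered by control mean per kilobase of exon, the 9 genes ran Aldh1a2, Aldh1a3, Rarg, Crabp1, Rara, Rarb, Rdh10, Cyp26b1 and Aldh1a1. In the control kidneys Aldh1a2 lay above all others without overlap, and the lowest Aldh1a3 value, 13.88, just met the highest values of Rarg and Crabp1, 13.93 and 13.94 BPM per kb. Rarg, Crabp1, Rara and Rarb, whose control means were 11.3, 11.04, 10.8 and 10.5 BPM per kb, could not be told apart by their spread on this scale. Rdh10 at 6.07 to 8.50 BPM per kb overlapped Crabp1 and Rarb, and Cyp26b1 at 2.79 to 6.37 overlapped Rdh10. Aldh1a1 lay below all others in control kidneys. In mutant kidneys Aldh1a3 lay clear of Rarg and Crabp1, and Rdh10, at 10.2 to 20.7 BPM per kb, shared its range with Rarb and Rara. The order depends on the length used. With the exons of the GENCODE basic set, a shorter set for Rarb, the Rarb control mean was 16.3 BPM per kb, above Aldh1a3 at 14.95, Rarg at 14.1, Crabp1 at 11.04 and Rara at 11.0, so that Rarb moved from rank 6 to rank 2, while Aldh1a2 kept rank 1 and Aldh1a1 rank 9. With the whole gene span as the length, the Aldh1a2 to Aldh1a3 ratio in control kidneys turned over (log2 ratio 1.85 by exon, -0.32 by span), since Aldh1a2 has long introns. Exon length was used because 20 of 63 well covered genes lying in an intron of a same-strand host had more covered bases than that host in all 6 libraries. That could not occur if every covered base within the GENCODE span of those hosts were counted for the host. The gene models used by the authors are unknown, so the choice of exon length rests on this assumption.

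**Figure D2:**
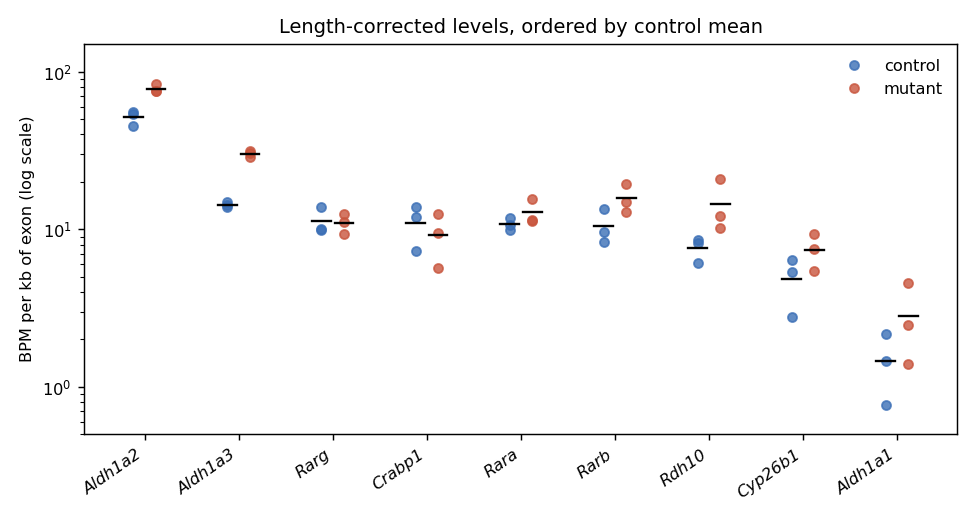
Level of each gene in BPM per kilobase of exon on a log axis, 1 point per kidney for control (blue) and mutant (red), with the group mean as a bar and genes ordered by control mean. Aldh1a2 and Aldh1a3 have the highest means in both groups, Rarg, Crabp1, Rara and Rarb overlap in control kidneys, and Aldh1a1 has the lowest mean.

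The rest of the pathway was spread to both sides of 0. Together, 5 lists of 58 further retinoid genes were read, of which 41 passed the filter on low values. Of these 41, 22 had a log2 fold change above 0 and 19 below, with a median of 0.08, 2 lay wholly above control (6.10% of all genes tested did) and 7 wholly below (5.12% of all genes did), and limma called 0. These lists, like the 9 genes, were written with earlier results of these data known.

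Uptake and storage genes were split. Of 12 genes 6 were tested, 2 above 0 and 4 below (median -0.41, but -0.21 with no filter on low values and -0.14 with a minimum of 5 BPM). Stra6l, a receptor for the retinol-carrying protein of plasma, was low and lay below control in every mutant, at 3.86 ± 1.75 BPM in the control group and 0.612 ± 0.501 BPM in the mutant group (SD, n = 3 each; log2 fold change -1.58, SE 0.78). Scarb1, a lipoprotein receptor that also takes up carotenoids, went the other way, at 20.5, 28.4 and 28.1 BPM in controls 5, 7 and 11 and 33.6, 70.8 and 33.4 BPM in mutants 6, 8 and 9. Mutant 8 was the highest library for Scarb1, as it was for Rdh10.

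Enzymes that interconvert retinol and retinal were spread to both sides of 0. Of 17 genes 13 were tested, 5 above 0 and 8 below, with 3 wholly below control, as were 5.12% of all genes tested. The median of -0.07 turned to 0.03 without control 11 and to 0.05 without mutant 9, and was -0.18 without mutant 8, -0.15 without control 5 and -0.12 without control 7. Rdh11, a retinal reductase, read 46.2, 50.5 and 57.99 BPM in controls 5, 7 and 11 and 36.1, 34.7 and 27.9 BPM in mutants 6, 8 and 9 (log2 fold change -0.63, SE 0.31), with no overlap. Rdh1 was near the filter at 2.77 ± 1.70 and 0.726 ± 0.367 BPM, and Rdh16 overlapped at 23.1 ± 2.59 and 34.01 ± 17.2 BPM (SD, n = 3 each). Dhrs3, a retinal reductase induced by retinoic acid and named outside the rule for naming genes, had nearly equal means, at 142 ± 15.4 and 141 ± 28.0 BPM (log2 fold change -0.02, 95% interval -0.48 to 0.43).

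Among other enzymes of retinal and retinoic acid, 2 of 4 genes were tested. Aldh8a1, an aldehyde dehydrogenase that can act on cis-retinal, read 13.3, 11.8 and 12.3 BPM in controls 5, 7 and 11 and 3.17, 6.68 and 6.69 BPM in mutants 6, 8 and 9. Every mutant lay well below every control, opposite in direction to Aldh1a2 and Aldh1a3, with a log2 fold change of -1.10 (SE 0.56) and a limma adjusted p of 0.887. Summed markers of the proximal tubule were also lower in every mutant, at 3233 to 4781 BPM against 5555 to 6959 BPM in control kidneys, with all 10 of its markers below 0. Their part in the Aldh8a1 value was not tested.

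The partner proteins of the receptors differed among themselves. All 10 genes of carriers, RXRs and coregulators were tested, 7 above 0 and 3 below (median 0.11, but -0.08 without control 11 and -0.10 without mutant 8). Rxra, the main RXR partner, read 129.7, 135 and 193 BPM in controls 5, 7 and 11 and 120.3, 104 and 114 BPM in mutants 6, 8 and 9, below control throughout (log2 fold change -0.41, SE 0.23). Crabp2, the carrier that hands retinoic acid to nuclear receptors, read 5.06, 6.09 and 22.6 BPM in the controls and 28.2, 26.6 and 14.7 BPM in the mutants, in the same order. Control 11 fell within the mutant range, so the groups overlapped despite a log2 fold change of 1.21 (SE 0.50, limma adjusted p 0.854). Ncor1, a corepressor recruited by RARs without ligand, stood at 292 ± 110.4 and 344 ± 16.97 BPM (SD, n = 3 each), with overlap.

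Known retinoic acid targets were mixed. Of 21 genes 14 were tested, 10 above 0 and 4 below, with Crabp2, Stra6 and Dhrs3 among those counted in other lists too. Their median log2 fold change was 0.41 against 0.02 over all genes tested, but it was 0.21 without control 7, 0.17 without control 11 and 0.19 without mutant 8. Of the 14 tested, 1 target, Nrip1, lay wholly above control, as did 6.10% of all genes tested. Another 1 lay wholly below, as did 5.12% of all genes. Nrip1, a nuclear receptor corepressor that retinoic acid induces, read 87.5, 118 and 74.4 BPM in controls 5, 7 and 11 and 124, 146 and 145 BPM in mutants 6, 8 and 9 (log2 fold change 0.59, SE 0.24, limma adjusted p 0.854). Meis2, a homeobox gene, stood at 85.1 ± 26.8 and 112 ± 15.9 BPM (SD, n = 3 each), with overlap.

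For the kidney target Ret, and for Ecm1, a matrix protein that acts on Ret and is made by stroma under retinoic acid, both also named outside the rule, the groups overlapped. Ret read 20.6, 16.3 and 33.2 BPM in controls 5, 7 and 11 and 31.04, 37.9 and 22.8 BPM in mutants 6, 8 and 9, a log2 fold change of 0.40 (95% interval -0.36 to 1.17). Ecm1 read 57.2, 27.5 and 69.6 BPM in the controls and 64.2, 67.1 and 72.9 BPM in the mutants, a log2 fold change of 0.49 (95% interval -0.12 to 1.11). Neither interval excludes 0, and both leave room for a change as large as that of Aldh1a3.

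**Figure D3:**
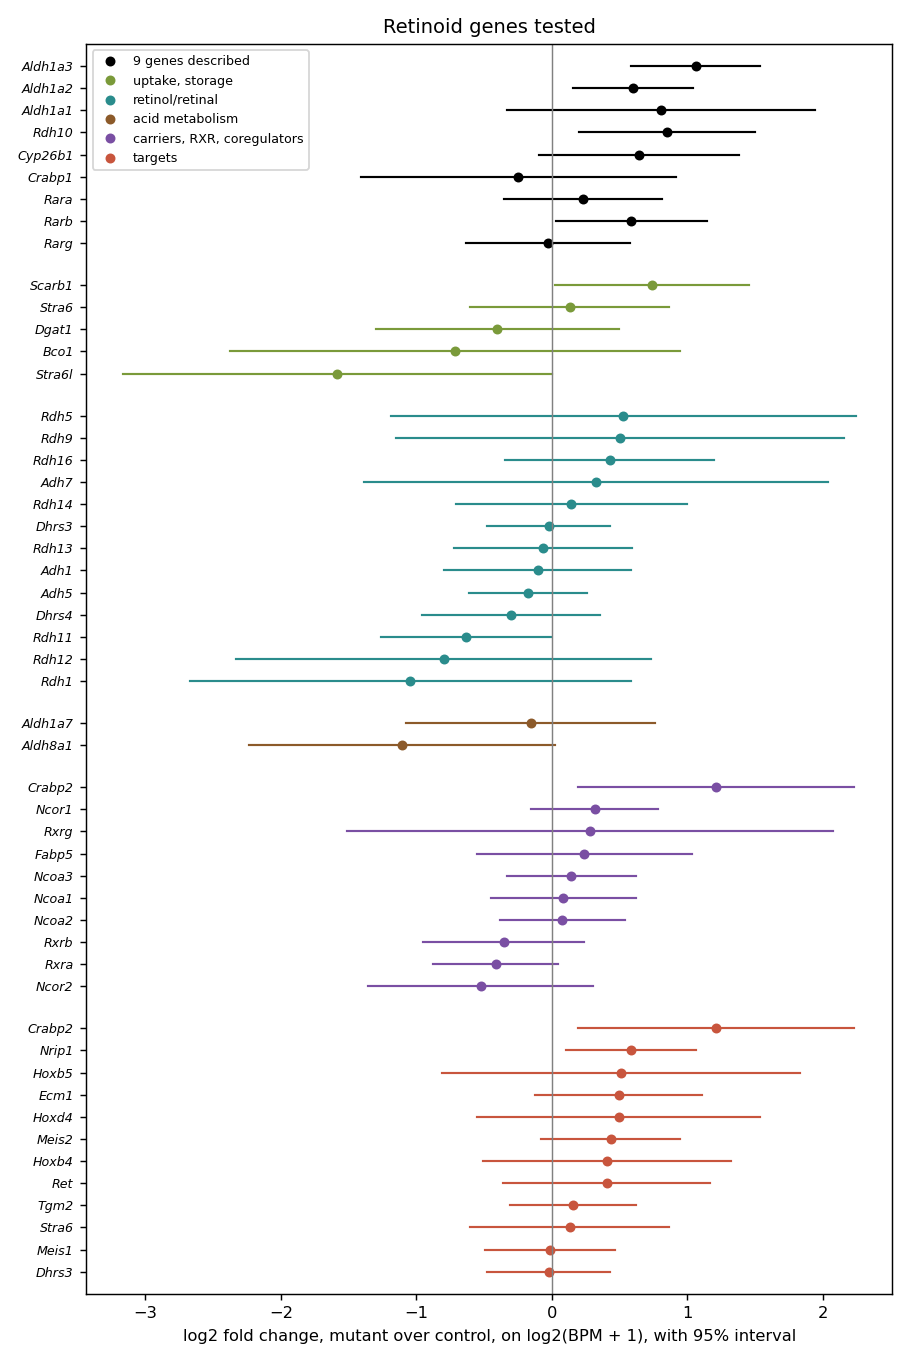
Log2 fold change of mutant over control (log2(BPM + 1) scale) with its 95% interval from limma for the 9 genes (black) and the tested genes of the 5 further retinoid lists that are reported here, where a gene in 2 lists is drawn in both. Of the 9 genes 7 lie to the right of 0, the further genes lie on both sides, and most intervals include 0.

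Markers of the cell types that make retinoic acid were read beside these values. Ret, a tip marker, and Ecm1 and Meis1, stroma markers, are also counted among the retinoic acid targets, so these readings share genes. For the stroma, the known site of Aldh1a2, the summed level of 12 markers was 2263 to 2729 BPM in the control group and 3106 to 3511 BPM in the mutant group, higher in every mutant, with 9 of 12 above 0 and a median of 0.44. Foxd1, the defining gene of cortical stroma, overlapped at 11.1, 20.5 and 16.8 BPM in controls 5, 7 and 11 and 13.3, 9.44 and 20.2 BPM in mutants 6, 8 and 9. For the epithelium of the ureteric bud, the known site of Aldh1a3, the sums overlapped. The 10 tip markers summed to 419 to 517 BPM in the control group and 499 to 662 BPM in the mutant group (8 of 10 above 0). The 14 collecting duct markers summed to 1711 to 1780 and 1724 to 1909 BPM (8 of 14 above 0). The 10 urothelium markers summed to 208 to 269 and 201 to 252 BPM (4 of 10 above 0).

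Smooth muscle and mesenchyme of the pelvis and ureter had 9 of 10 markers above 0, and their sum was higher in every mutant, at 596 to 699 BPM in the control group and 731 to 955 BPM in the mutant group. Of the 10, 2 lay wholly above control (6.10% of all genes tested did). Tbx3, 1 of these 2, read 106, 116 and 98.7 BPM in controls 5, 7 and 11 and 211, 199 and 201 BPM in mutants 6, 8 and 9. At its narrowest, from 699 to 731 BPM, the gap between the sums was smaller than the Tbx3 difference. Acta2, the marker with the highest means, overlapped at 280 ± 82.1 and 281 ± 79.1 BPM (SD, n = 3 each). The part of stromal and ureteral tissue in the Aldh1a2 and Aldh1a3 values was not tested. Nephron progenitor markers overlapped at 704 to 748 and 721 to 812 BPM, with 5 of 9 above 0. Six2 itself read 19.8, 8.93 and 17.6 BPM in controls 5, 7 and 11 and 22.0, 26.9 and 48.3 BPM in mutants 6, 8 and 9, higher in every mutant. Of these 9 markers 3 lay wholly above control (6.10% of all genes tested did) and 2 wholly below (5.12% did). Besides Six2, those above were Eya1 (51.7, 46.3 and 39.0 BPM in the controls, 74.4, 76.9 and 109.8 BPM in the mutants) and Gdnf (34.3, 51.2 and 39.8 against 60.5, 71.3 and 69.0 BPM). Those below were Cited1 (56.5, 46.4 and 31.1 BPM in the controls, 12.3, 26.9 and 9.96 BPM in the mutants) and Meox1 (21.5, 29.2 and 31.9 against 13.7, 14.02 and 6.76 BPM). Eya1, Gdnf, Cited1 and Meox1 were named after their values were seen. Markers of podocytes (8 of 8 below 0) summed to 1140 to 1658 and 1029 to 1171 BPM, and those of endothelium (4 of 7 above 0) to 1016 to 1259 and 1078 to 1224 BPM, with overlap in both. Red cell markers summed to 1788 to 4341 and 1995 to 3416 BPM, and 7 gonad markers to at most 12.3 BPM.

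The 5 genes whose log2 levels followed Aldh1a3 most closely over the 6 libraries were Alkbh1, Six3 (listed at 0 in all controls), Arhgef39, Ttc7b and Fbxo28, with Pearson r from 0.99 to 0.997 and Spearman rho from 0.71 to 0.94. Alkbh1 read 12.8, 11.7 and 12.2 BPM in controls 5, 7 and 11 and 22.4, 25.02 and 25.6 BPM in mutants 6, 8 and 9. With a pair of tight groups, r measures little beyond the gap between them, and 116 of 13976 genes had an r above 0.9. Among the other genes of the 9 described, Aldh1a2 had the highest Pearson r at 0.92, followed by Rdh10 at 0.80 and Rarb at 0.69. Rarg and Crabp1 were at -0.12 and -0.30. By Spearman rho Aldh1a2 was at 0.60, below Rdh10 and Aldh1a1, both at 0.77. Values of r for the further retinoid genes are not given.

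**Figure D4:**
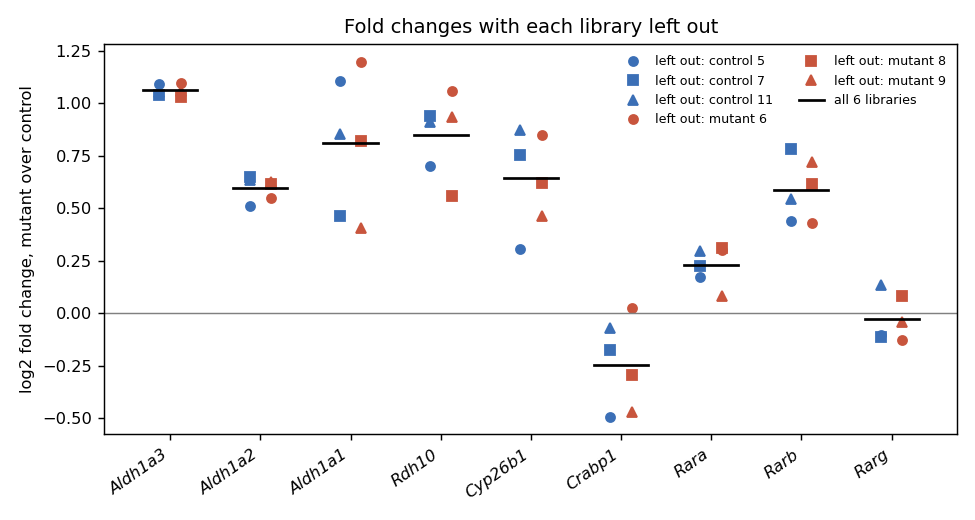
Log2 fold change of mutant over control for each gene with all 6 libraries (bar) and with each library left out (points, blue for a control and red for a mutant left out). Aldh1a3 and Aldh1a2 barely moved (1.03 to 1.10 and 0.51 to 0.65), Aldh1a1 ran from 0.41 to 1.20 and Cyp26b1 from 0.30 to 0.87, and Crabp1 and Rarg crossed 0.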

How the data were processed

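Total RNA of 6 kidneys was depleted of ribosomal RNA and made into libraries with an Ion kit, per the labels' protocols. The submitters' processing notes name build mm10 and bedtools only; for the aligner and annotation, none is given in the sources used here. The signal deposited by the authors is summed base coverage per gene plus 1, times a factor per library, read from the values: 100% were whole multiples of the column's smallest value (tolerance 0.001). The authors' deposited ratio and p-value columns were not used.

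The floor and factor were removed and covered bases scaled to 1000000 per library (BPM). The 13977 of 23219 genes that reached 1 BPM in 3 or more libraries were fitted in limma 3.58.1 (R 4.3.3; trend, robust, no covariate) on log2(BPM + 1), two-sided, with Benjamini-Hochberg adjustment over all genes at 0.05. The design allowed for counts; the values are coverage, so no count test was run. The fit was tested on simulated data. Coordinates and exon lengths are from GENCODE M21 (mm10, 1-based); promoters are from RefSeq (GRCm38.p6).

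The genes and lists were chosen with earlier results of these data known. Named genes are the 9, up to 3 of each retinoid list with the smallest unadjusted p, and the 5 most like Aldh1a3; others are said to be outside the rule or serve as checks and markers. A few list genes enter the counts but are not reported here. Older symbols were matched through RefSeq synonyms. Of the 8 red cell markers 7 were in the table. Alternatives covered scaling, filter, pseudocount, variance model, sample weights and libraries left out. Basic-set exon lengths were added after seeing the data.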

Additional observations from a re-analysis of the deposited data

How the results depend on the processing

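No paired analysis was possible because the labels give no litter, so whether any control and mutant kidneys form pairs is unknown. Limma called 0 genes in all, and 1 with quantile normalization, 1 without the trend, 4 with sample weights, 0 to 14 with each library left out (14 without control 11, 3 without mutant 8) and 19 without control 11 and mutant 6 together. Of the 9 retinoid genes it called 0, except 1 (Aldh1a3) without control 11 (range 0 to 1 with each library left out; adjusted p 0.0307) and 1 (Aldh1a3) without control 11 and mutant 6 together (adjusted p 0.0286). Since Aldh1a3 was chosen for this difference, these calls add no support. No gene of the 5 further lists was called under any alternative. Of 135 recomputed fold changes of the 9 genes, 6 changed sign, all of Rarg or Crabp1: Rarg was 0.011 with sample weights, 0.031 without both libraries and -0.13 to 0.13 with each library left out, and Crabp1 was 0.20 without both libraries and -0.49 to 0.024 with each left out. The causes were not tested. The Aldh1a2 to Aldh1a3 log2 ratio per length was -0.32 by gene span. Unknown read numbers limit low genes most.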

Other observations

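Several retinoid genes below the filter had their highest level in 1 kidney, with little or no coverage in the others. Rbp2, the intestinal type of retinol-binding protein, read 8.69 BPM in mutant 6 and at most 0.398 BPM in the other libraries, the same kidney in which Cyp26a1 read 7.07 BPM. Cyp26c1 read 4.53 BPM in mutant 8 and was listed at 0 in the other 5 libraries. Rbp4 and Lrat, which carry retinol in plasma and store it as esters, read at most 0.55 and 0.50 BPM in any library, both in control 11. Bco2, Dhrs9, Sdr16c5 and Stra8 were listed at 0 in all 6.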
